A study of Mus musculus with 26 samples.

Results

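The genes described here are 10 markers of macrophages and of antigen presentation by major histocompatibility complex class II in mouse brown adipose tissue. They were taken by symbol from the deposited expression table, where they make up 10 of 48432 rows. The class II genes are H2-Aa, H2-Ab1, H2-Eb1 and Cd74. C1qa, C1qb and C1qc encode the chains of complement C1q, and Cd163, Adgre1 and Csf1r encode macrophage surface receptors. Every one of the 10 was measured in all 26 libraries and passed the filter on low values.

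Class II molecules are dimers of an alpha and a beta chain that present peptides from engulfed material to CD4+ T cells, and their invariant chain, encoded by Cd74, escorts them to the compartment where peptide is loaded. Professional antigen-presenting cells (macrophages, dendritic cells and B cells) carry most class II, under the coactivator encoded by Ciita, which interferon gamma induces. Tissue macrophages are the main source of C1q, and in brown fat they clear debris and lie among adipocytes, vessels and nerves.

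The study profiled brown fat of mice at 2 months of age by RNA sequencing. All mice carried floxed Klf15, a transcription factor gene, as KLF15 flox/flox (called FF here) or as Ucp1-Cre/+;K15F/F (called BKO). The Ucp1 promoter that drives Cre is active in brown adipocytes, so the allele is not aimed at the immune cells in the tissue. Each genotype was kept at room temperature and fed (3 FF and 3 BKO libraries), at room temperature and fasted (3 and 3), under a cold challenge (4 and 4) or under cold with fasting (3 and 3). The labels used here give no sex, no temperature and no length of cold or fasting. Each library has its own number in its title, but nothing states whether animals were pooled, so p-values measure the spread between these libraries.

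Values are FPKM, fragments scaled to gene length and to the number mapped, and the FPKM of a library summed to between 388107 and 501068. The number of reads behind a value is unknown. Klf15 stood at 9.03 to 30.6 FPKM in FF and at 2.12 to 8.92 FPKM in BKO libraries, in the direction of the labels. The brown adipocyte genes Cidea and Adipoq were abundant, at 1598 to 2311 and 501 to 997 FPKM, and the macrophage genes Lyz2 and Cd68 at 27.9 to 63.0 and 2.17 to 5.06 FPKM. Library numbers in the labels fall into a first series of 8 libraries (numbers 1 to 8) and a second of 18 (numbers 15 to 32). The first series holds FF libraries alone: fed replicates 1 and 2, all fasted replicates and cold replicates 2 to 4. What sets the series apart is not stated. Within each series the library numbers run in blocks by condition. Condition and number block therefore cannot be told apart within a series, and this holds for all BKO comparisons of conditions. In whole tissue, fewer cells of a type and less RNA per cell cannot be told apart.

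H2-Aa, H2-Ab1 and H2-Eb1 lie side by side on chromosome 17 (GRCm38, positions 34257689 to 34316674). Class II promoters are known for an X box, bound by the RFX complex, upstream of a Y box, bound by NF-Y. The 250 bases before the start of both class II genes found in the RefSeq promoter table (GRCm38.p6) are shown because both genes were called lower in fasted FF and in cold BKO mice, and those of Cd163 because its group means were highest in fasted mice. Capitals mark the X1 core GCAAC and the Y box CTGATTGG in the class II genes, and the Y box core ATTGG in Cd163.
H2-Aa, chr17:34287824-34288073, minus strand: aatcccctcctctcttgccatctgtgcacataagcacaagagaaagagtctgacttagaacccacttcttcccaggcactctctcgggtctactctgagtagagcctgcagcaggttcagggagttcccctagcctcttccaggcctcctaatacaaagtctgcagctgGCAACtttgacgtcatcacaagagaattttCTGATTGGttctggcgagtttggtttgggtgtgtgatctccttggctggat
H2-Eb1, chr17:34305617-34305866, plus strand: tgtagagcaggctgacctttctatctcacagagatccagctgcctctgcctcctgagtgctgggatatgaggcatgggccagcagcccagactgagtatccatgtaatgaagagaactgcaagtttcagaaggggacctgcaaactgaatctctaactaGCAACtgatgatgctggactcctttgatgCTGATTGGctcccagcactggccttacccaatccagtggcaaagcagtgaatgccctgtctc
Cd163, chr6:124304401-124304650, plus strand: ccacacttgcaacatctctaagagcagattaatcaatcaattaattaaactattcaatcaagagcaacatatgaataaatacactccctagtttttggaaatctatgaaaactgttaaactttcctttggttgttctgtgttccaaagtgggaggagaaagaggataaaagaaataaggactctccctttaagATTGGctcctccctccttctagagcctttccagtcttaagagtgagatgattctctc

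The Y box stood 51 to 44 bases before the start of H2-Aa and 62 to 55 bases before that of H2-Eb1. The X1 core ended 25 bases before it in H2-Aa and 24 bases before it in H2-Eb1. Among 32851 RefSeq promoters, searched on both strands, GCAAC was in 29.9%, CTGATTGG in 3.83% and ATTGG, which lies within it, in 33.8%. GCAAC followed within 30 bases by CTGATTGG was in 33 promoters (0.1%) of 31 genes, those of H2-Oa and H2-Eb2 among them. Most of the 31 are not class II genes, for example Gstz1, Stard7 and Mrpl50. GCAAC also occurs in the Cd163 window, without that Y box within 30 bases. The motifs were chosen after the sequences had been seen, and a match is a description, not a binding site. Promoters of 5 of the 10 genes were matched in the table.

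**Figure D1:**
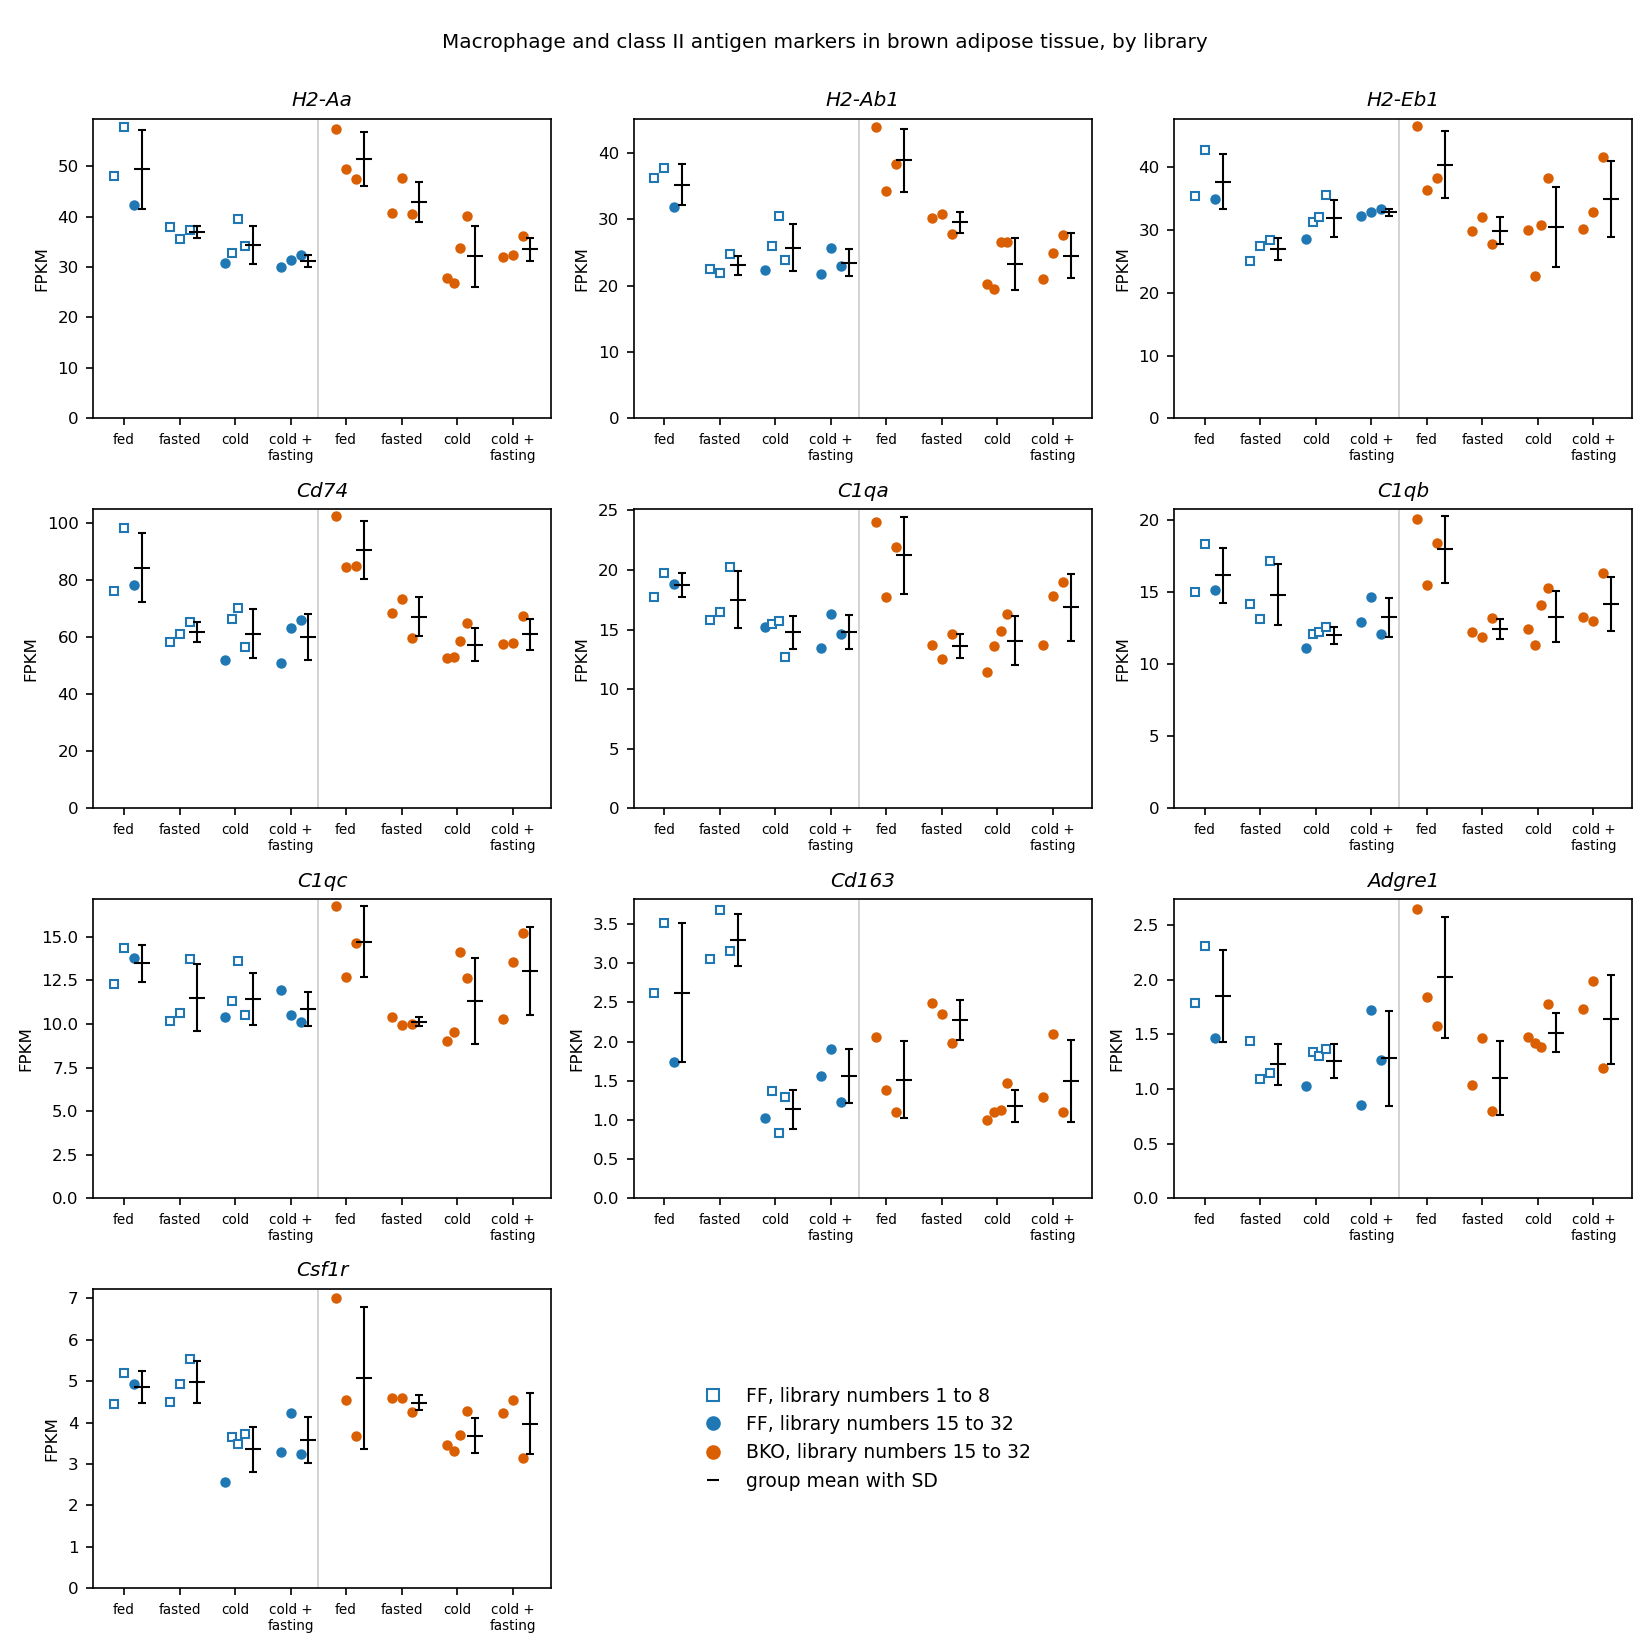
FPKM of the 10 genes in each of the 26 libraries, by genotype and condition, with bars for the group mean and SD (3 or 4 libraries a group). Blue is FF, with open squares for library numbers 1 to 8 and filled points for 15 to 32, and orange is BKO; for the 4 class II genes the fed groups of both genotypes hold the highest means.

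The 4 class II genes were highest in fed brown fat at room temperature in both genotypes. H2-Aa encodes the alpha chain of the class II molecule I-A. In FF libraries H2-Aa stood at 48.0, 57.8 and 42.4 FPKM fed, 37.8, 35.6 and 37.4 fasted, 30.8, 32.8, 39.5 and 34.2 in cold, and 29.9, 31.4 and 32.3 in cold with fasting. In BKO libraries it stood at 57.4, 49.3 and 47.4 FPKM fed, 40.7, 47.6 and 40.6 fasted, 27.8, 26.9, 33.7 and 40.1 in cold, and 31.99, 32.3 and 36.1 in cold with fasting. Every fed FF library lay above every FF library of the other conditions. Fed BKO libraries lay above all cold ones, with or without fasting, and overlapped the fasted ones.

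H2-Ab1 encodes the beta chain that pairs with the H2-Aa chain. H2-Ab1 stood at 36.3, 37.7 and 31.8 FPKM in fed FF libraries, 22.5, 21.96 and 24.7 in fasted, 22.4, 26.03, 30.6 and 23.9 in cold, and 21.8, 25.7 and 23.01 in cold with fasting. Its BKO libraries held 43.9, 34.3 and 38.4 FPKM fed, 30.2, 30.8 and 27.8 fasted, 20.3, 19.4, 26.6 and 26.6 in cold, and 20.99, 24.95 and 27.7 in cold with fasting. The fed libraries of both genotypes lay above all other libraries. The fasted mean was 65.4% of the fed mean in FF and 76.1% in BKO, and the cold BKO mean was 59.8%.

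Cd74, the invariant chain, was the most abundant of the 10 per length in every library. Cd74 stood at 76.4, 98.3 and 78.4 FPKM in fed FF libraries, 58.4, 61.3 and 65.5 in fasted, 51.9, 66.5, 70.3 and 56.6 in cold, and 50.8, 63.2 and 66.1 in cold with fasting. Its BKO libraries held 102, 84.8 and 84.9 FPKM fed, 68.5, 73.4 and 59.9 fasted, 52.9, 53.0, 58.8 and 64.9 in cold, and 57.5, 58.1 and 67.3 in cold with fasting. As for H2-Ab1, all fed libraries were above all others.

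H2-Eb1, the beta chain of the second class II molecule, I-E, had another order. H2-Eb1 stood at 35.5, 42.7 and 34.9 FPKM in fed FF libraries, 25.1, 27.4 and 28.4 in fasted, 28.5, 31.3, 32.005 and 35.6 in cold, and 32.2, 32.9 and 33.4 in cold with fasting. Its BKO libraries held 46.5, 36.4 and 38.3 FPKM fed, 29.8, 32.1 and 27.8 fasted, 29.9, 22.7, 30.8 and 38.3 in cold, and 30.1, 32.9 and 41.7 in cold with fasting. Its lowest group means were those of the fasted groups and the cold BKO group, and cold libraries overlapped fed ones in both genotypes. The I-E alpha chain is a pseudogene in the reference strain, and its row, H2-Ea-ps, was listed at 0 in all 26 libraries.

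The C1q chains had lower median levels than the class II genes and, on the FPKM scale, narrower ranges. C1qa, the A chain, stood at 17.7, 19.7 and 18.8 FPKM in fed FF libraries, 15.8, 16.5 and 20.2 in fasted, 15.2, 15.5, 15.7 and 12.7 in cold, and 13.5, 16.3 and 14.6 in cold with fasting. In BKO libraries C1qa stood at 24.1, 17.7 and 21.9 FPKM fed, 13.7, 12.6 and 14.6 fasted, 11.5, 13.6, 14.9 and 16.3 in cold, and 13.7, 17.8 and 19.03 in cold with fasting. Fasted FF libraries overlapped fed ones, while all fasted BKO libraries lay below all fed ones and also below all fasted FF ones.

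C1qb, the B chain, stood at 15.03, 18.4 and 15.1 FPKM in fed FF libraries and at 11.2, 12.1, 12.2 and 12.6 in cold ones. In BKO libraries C1qb stood at 20.1, 15.5 and 18.4 FPKM fed, 12.2, 11.9 and 13.2 fasted, and 12.4, 11.3, 14.1 and 15.3 in cold. Within FF, fed libraries lay above the cold ones without overlap. Within BKO, fed libraries lay above the fasted and the cold ones without overlap, and the fasted and cold groups overlapped each other. Fasted FF libraries (13.1 to 17.2 FPKM) and BKO libraries under cold with fasting (12.99 to 16.4 FPKM) overlapped the fed ones of their genotype. C1qc, the C chain, ranged from 9.04 to 16.8 FPKM over the 26 libraries, with the fed groups again highest in the mean.

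The macrophage receptors were the least abundant of the 10 per length. Cd163 takes up haptoglobin-bound haemoglobin. Cd163 stood at 2.62, 3.52 and 1.74 FPKM in fed FF libraries, 3.06, 3.68 and 3.15 in fasted, 1.03, 1.37, 0.833 and 1.30 in cold, and 1.56, 1.91 and 1.22 in cold with fasting. In BKO libraries Cd163 stood at 2.07, 1.38 and 1.10 FPKM fed, 2.49, 2.35 and 1.99 fasted, 1.00, 1.10, 1.13 and 1.47 in cold, and 1.29, 2.10 and 1.10 in cold with fasting. It was the one gene of the 10 whose highest group mean in both genotypes was the fasted one. All fasted FF libraries were above all fasted BKO libraries, and the cold libraries of both genotypes were low.

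Csf1r, the receptor for the macrophage growth factor Csf1, stood at 4.44, 5.20 and 4.93 FPKM in fed FF libraries, 4.50, 4.92 and 5.52 in fasted, 2.55, 3.65, 3.48 and 3.73 in cold, and 3.28, 4.22 and 3.24 in cold with fasting. In BKO libraries Csf1r stood at 6.999, 4.54 and 3.68 FPKM fed, 4.60, 4.58 and 4.26 fasted, 3.45, 3.31, 3.69 and 4.28 in cold, and 4.24, 4.54 and 3.14 in cold with fasting. The fed and fasted FF libraries lay above all FF libraries kept in cold, whereas the BKO groups all overlapped one another. Adgre1 encodes an adhesion receptor used to identify mouse macrophages, and ranged from 0.796 FPKM in a fasted BKO library to 2.64 FPKM in a fed one.

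Ordered by group mean, the first 2 places for all 4 class II genes were fed BKO and then fed FF, and these groups overlapped. Neighbours in the order of the 8 groups overlapped except at a few steps. H2-Ab1 and Cd74 stepped down without overlap from fed FF to fasted BKO, H2-Aa from fasted BKO to fasted FF, and Cd163 from fasted BKO to FF under cold with fasting.

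Fasting at room temperature in FF mice was accompanied by a fall of all 4 class II genes, while the other 6 did not pass the test. The differences below are on the scale of log2(FPKM + 1), from limma with Benjamini-Hochberg adjustment over 12702 genes and a threshold of 0.05. H2-Ab1 fell by 0.59 (SE 0.13, adjusted p = 0.00114), H2-Eb1 by 0.46 (SE 0.14, adjusted p = 0.0122), Cd74 by 0.44 (SE 0.13, adjusted p = 0.00994) and H2-Aa by 0.40 (SE 0.13, adjusted p = 0.0173). Thus 4 of 10 were called lower, where 19.4% of all genes tested were, and 5 of 10 had fasted libraries wholly below fed ones, as had 23.3% of all genes. The median difference of the 10 was -0.28, that of the 3 C1q chains -0.12 and that of the 3 receptors 0.03, while that of all genes lay between -0.00697 and 0.0117 in every comparison made. Without FF fed replicate 2 the call of H2-Ab1 alone was left, and that of H2-Aa also ended without FF fasted replicate 2 (adjusted p up to 0.114). Within the first library series alone, 5 of 10 were lower, the 4 class II genes (-0.48 to -0.66) and Adgre1 (-0.45, adjusted p = 0.0320).

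Fasting in BKO mice was accompanied by lower class II beta chains and Cd74, all C1q chains and Adgre1. C1qa fell by 0.60 (SE 0.13, adjusted p = 0.00179), C1qb by 0.49 (SE 0.12, adjusted p = 0.00377), C1qc by 0.49 (SE 0.15, adjusted p = 0.0186) and Adgre1 by 0.52 (SE 0.16, adjusted p = 0.0153). Cd74 fell by 0.43 (adjusted p = 0.0154), H2-Eb1 by 0.42 (adjusted p = 0.0294) and H2-Ab1 by 0.38 (adjusted p = 0.0348). H2-Aa differed by -0.25 (adjusted p = 0.148), Csf1r by -0.11 and Cd163 by 0.40 (adjusted p = 0.0910). In all, 7 of 10 were called lower, beside 14.6% of all genes, and 7 of 10 had fasted libraries wholly below fed ones, beside 20.7%. Leaving out BKO fed replicate 1 or BKO fasted replicate 3 left 3 calls, and without the former 2 of those were lower and the third was a higher Cd163 (0.55, adjusted p = 0.0367). C1qa and C1qb kept their calls whichever library was left out, while the call of H2-Ab1 ended without BKO fed replicate 1 or 3 or any fasted BKO library (adjusted p up to 0.169), that of H2-Eb1 also without BKO fasted replicate 1 and that of C1qc also without BKO fasted replicate 2.

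The cold challenge in FF mice was accompanied by a fall of 6 of the 10. H2-Aa fell by 0.51 (SE 0.12, adjusted p = 0.00377), H2-Ab1 by 0.45 (SE 0.12, adjusted p = 0.0108) and Cd74 by 0.45 (SE 0.12, adjusted p = 0.00822). C1qb fell by 0.40 (SE 0.11, adjusted p = 0.0134), Csf1r by 0.43 (SE 0.14, adjusted p = 0.0309) and Cd163 by 0.74 (SE 0.16, adjusted p = 0.00192), to 43.2% of the fed mean FPKM. Beside these 6 of 10, 10.3% of all genes were called lower, and 8 of 10 had cold libraries wholly below fed ones, beside 15.7% of all genes. All 10 estimates were negative, between -0.74 and -0.22. Without FF fed replicate 2 only 2 calls were left, and the call of Csf1r ended without any 1 of the 3 fed libraries or FF cold replicate 1 (adjusted p up to 0.120). Within the first library series 3 of 10 were called, H2-Aa at -0.56, H2-Ab1 at -0.46 and Cd163 at -0.91; in the second, with 1 FF library fed and 1 in cold, none was.

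In BKO mice the cold challenge was accompanied by a fall of all 4 class II genes and of 2 C1q chains. H2-Ab1 fell by 0.73 (SE 0.12, adjusted p = 0.000264), H2-Aa by 0.68 (SE 0.12, adjusted p = 0.000424) and Cd74 by 0.65 (SE 0.12, adjusted p = 0.000615). C1qa fell by 0.56 (SE 0.12, adjusted p = 0.00315), C1qb by 0.41 (SE 0.11, adjusted p = 0.0146) and H2-Eb1, whose libraries overlapped, by 0.41 (SE 0.13, adjusted p = 0.0337). That is 6 of 10, beside 6.5% of all genes called lower, and 5 of 10 had cold libraries wholly below fed ones, beside 11.5%. The calls of H2-Eb1 and C1qb ended without BKO fed replicate 1, BKO fed replicate 3 or BKO cold replicate 2, and that of H2-Eb1 also without BKO cold replicate 1 (adjusted p up to 0.173 and 0.0884). Cd163 was not called in cold BKO mice, with a mean of 1.52 ± 0.495 FPKM (SD, n = 3) fed and 1.18 ± 0.206 FPKM (SD, n = 4) in cold.

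Under cold with fasting, H2-Aa, H2-Ab1 and Cd74 were lower than in fed mice in both genotypes, and no other of the 10 passed the test. In FF mice H2-Aa fell by 0.63 (SE 0.13, adjusted p = 0.00123), H2-Ab1 by 0.57 (SE 0.13, adjusted p = 0.00384) and Cd74 by 0.48 (SE 0.13, adjusted p = 0.00958). In BKO mice H2-Ab1 fell by 0.64 (SE 0.13, adjusted p = 0.00165), H2-Aa by 0.60 (SE 0.13, adjusted p = 0.00244) and Cd74 by 0.56 (SE 0.13, adjusted p = 0.00394). In each genotype 3 of 10 were called lower, beside 8.93% of all genes. In FF 8 of 10 had libraries wholly below the fed ones, beside 18.6% of all genes, and in BKO 3 of 10, beside 15.1%. With the library series as a covariate none of the 3 FF calls was left (adjusted p = 0.0560 for H2-Aa, 0.107 for H2-Ab1 and 0.197 for Cd74), and all FF libraries under cold with fasting are in the second series, with a single fed one. Leaving out BKO fed replicate 1 gave 5 FF calls, leaving out BKO fed replicate 2 gave 5 BKO calls, and the FF call of Cd74 ended without FF fed replicate 2 or FF cold with fasting replicate 1 (adjusted p up to 0.0772).

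**Figure D2:**
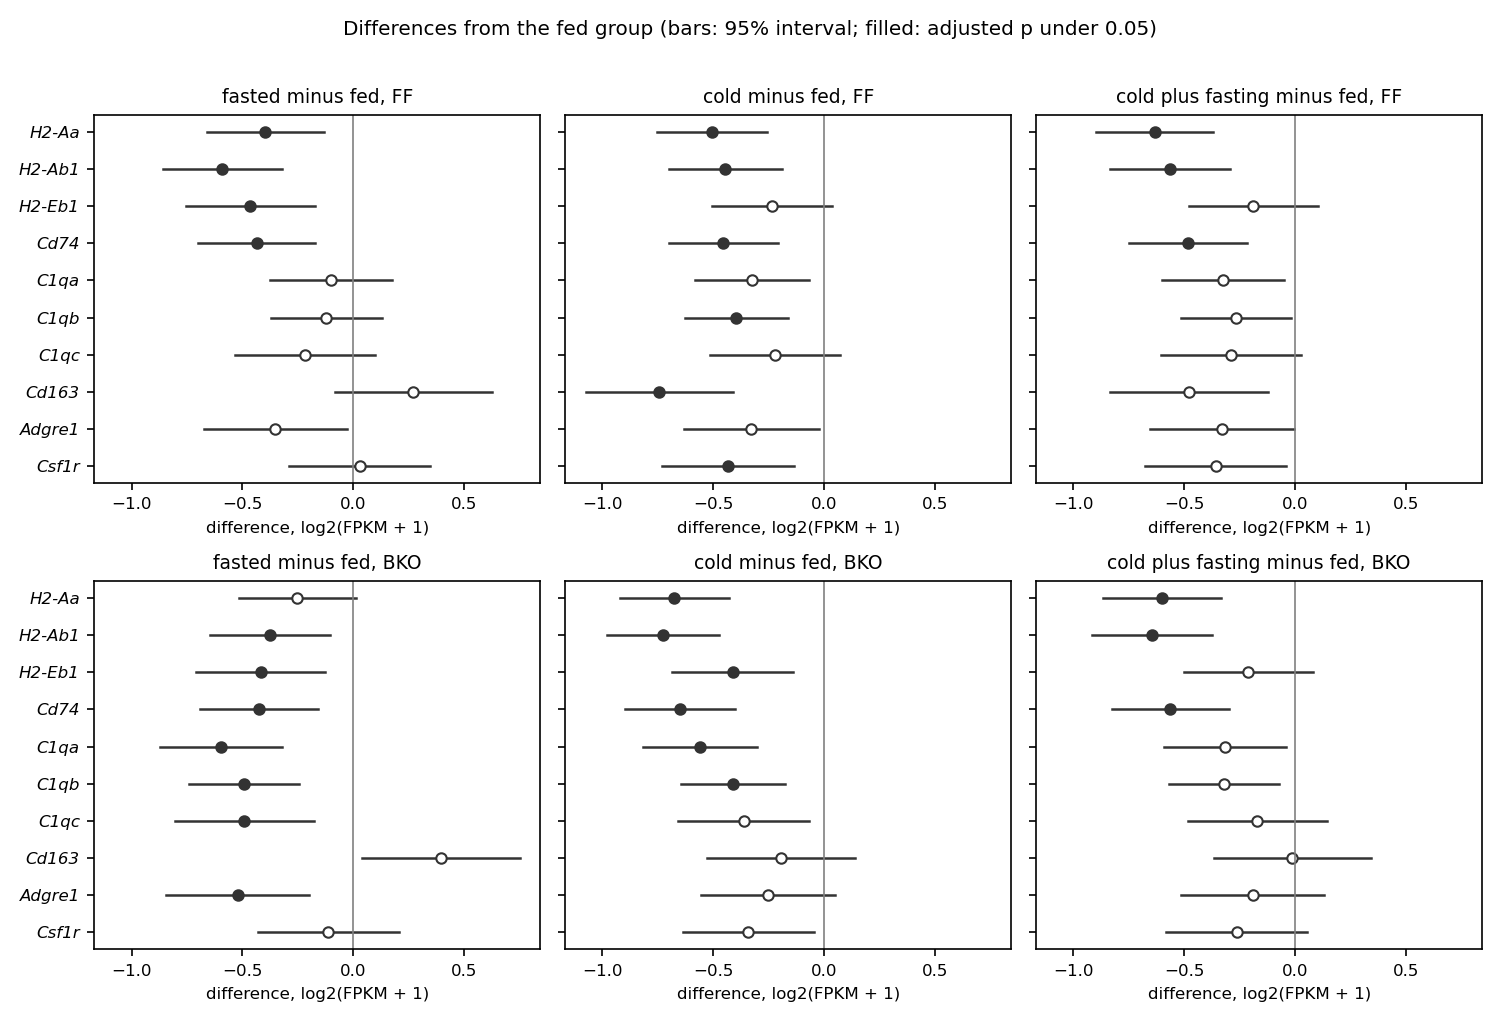
Difference from fed mice of the same genotype, on the scale of log2(FPKM + 1), for the 10 genes in each of 3 conditions and 2 genotypes. Lines are 95% intervals from limma and filled points passed the threshold; the filled points lie to the left of 0 in all 6 panels, 29 of 60 in number.

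Across the 6 condition comparisons 29 of the 60 values were called lower and none higher; the 3 comparisons within a genotype share its fed libraries and are not independent. Of all genes, 18.1% were called higher in fasted, 13.3% in cold and 11.5% in cold with fasting FF, and 12.9%, 9.72% and 10% in BKO. H2-Ab1 and Cd74 were lower in 6 of 6, H2-Aa in 5, H2-Eb1 and C1qb in 3, C1qa in 2, and C1qc, Cd163, Adgre1 and Csf1r in 1 each. FF fed replicate 2 and BKO fed replicate 1 were the highest of their groups for all 10 genes. With both left out, 2 of 10 were called in fasted FF (H2-Ab1 lower and Cd163 higher), 2 in cold FF, and 3 in fasted BKO (C1qa and C1qb lower, Cd163 higher).

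No gene of the 10 differed between the genotypes by the test in any condition. Under fed conditions the BKO minus FF differences ran from -0.52 to 0.16 with a median of 0.10, and 0.22% of all genes were called in either direction. Their range was -0.39 to 0.35 when fasted (8.68% of all genes called), -0.14 to 0.15 in cold (0.402%) and -0.05 to 0.23 in cold with fasting (0.236%). Averaged over the conditions, 2.97% of all genes were called and none of the 10. Unadjusted p was under 0.05 for 1 of 10 fed, 3 fasted, none in cold or in cold with fasting, and 1 on the average. Among all 12702 genes tested, the count under 0.05 was 742 fed and 2970 fasted. It was 477 in cold, 729 in cold with fasting and 2404 on the average.

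Of the 10, Cd163 had the largest estimated difference between genotypes. Its fed mean was 2.63 ± 0.890 FPKM in FF (SD, n = 3) and 1.52 ± 0.495 FPKM in BKO (SD, n = 3), 57.7% of the FF value, and the libraries overlapped. The limma difference was -0.52 (SE 0.17, 95% interval -0.87 to -0.16, unadjusted p = 0.00649, adjusted p = 0.539). When fasted it was -0.39 (adjusted p = 0.166) with no overlap, in cold 0.03, in cold with fasting -0.05, and on the average of conditions -0.23 (adjusted p = 0.129). With array weights the fed difference was called (adjusted p = 0.0159), and without FF fed replicate 3 the average was (-0.28, adjusted p = 0.0449). FF fed replicate 3 is the single fed FF library of the second series, to which all BKO libraries belong, so without it genotype and series cannot be told apart in fed mice. Within the second series the fed difference of Cd163 was -0.14, and with the series as a covariate it was -0.31 fed and -0.04 on the average, none of them called.

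In fasted mice every BKO library lay above every FF library for H2-Ab1 (difference 0.35, adjusted p = 0.101) and below for C1qa (-0.33, adjusted p = 0.121), neither past the threshold. With H2-Aa, also above, and Cd163, also below, 2 of 10 lay wholly above and 2 wholly below in fasted BKO mice, beside 12.1% and 11% of all genes. All fasted FF libraries belong to the first series and all fasted BKO libraries to the second, so in fasted mice genotype and series cannot be told apart.

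**Figure D3:**
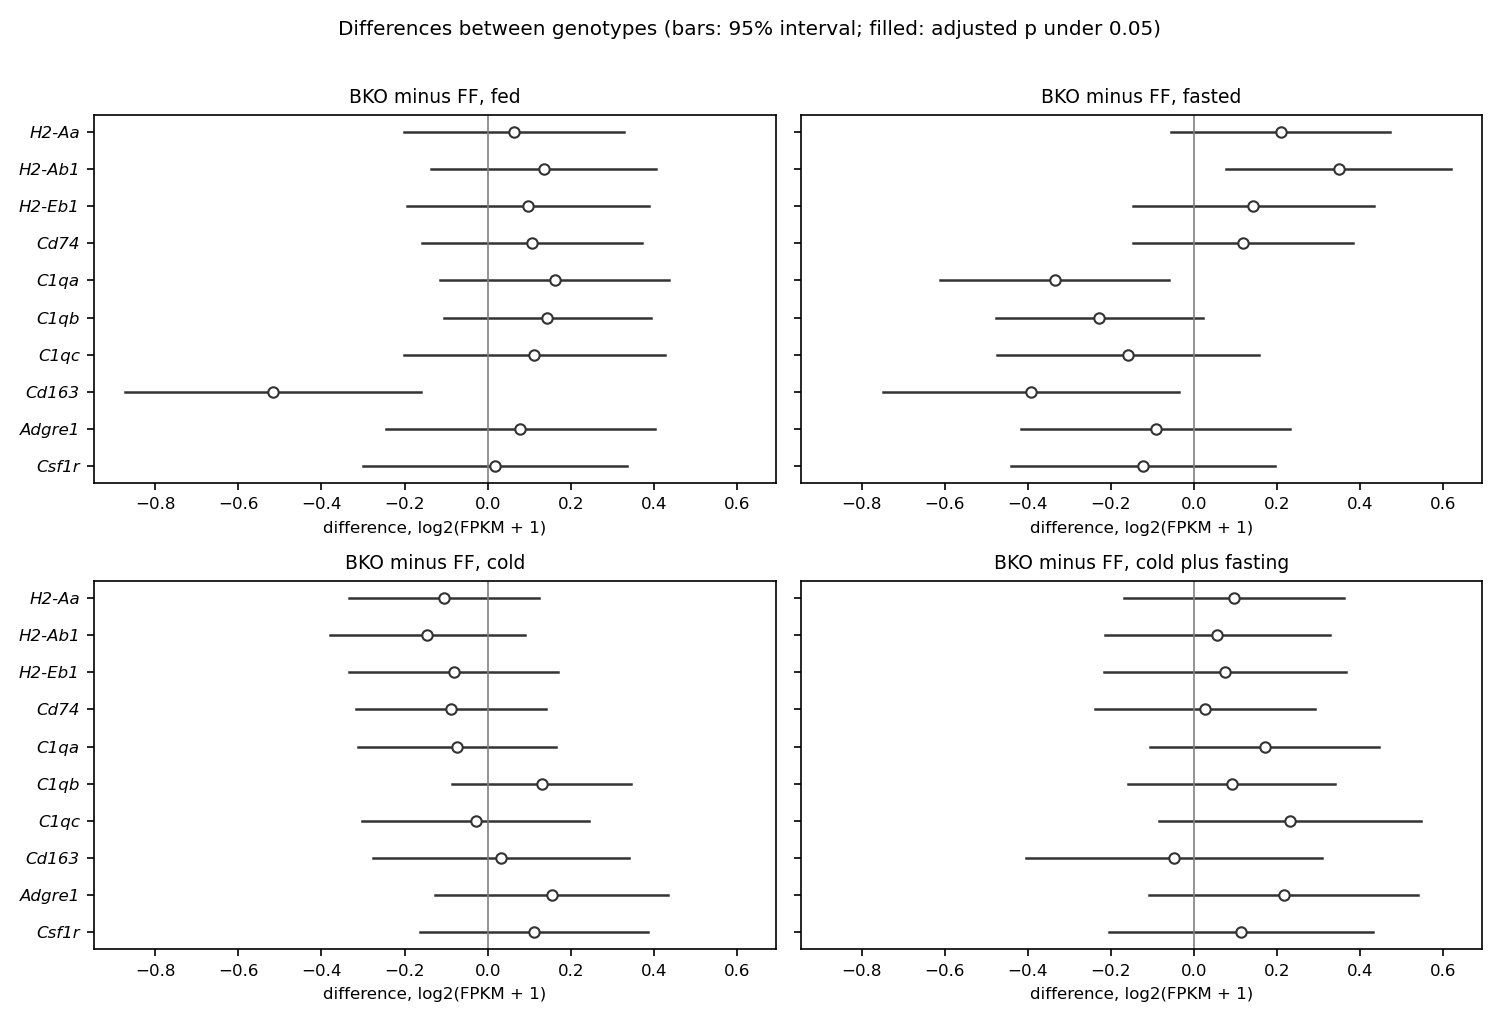
BKO minus FF difference on the scale of log2(FPKM + 1) for the 10 genes in each of the 4 conditions, with 95% intervals from limma. Open points did not pass the threshold, and all points are open; Cd163 lies lowest in fed mice, at -0.52.

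Whether the response to a condition differed between genotypes was tested as the difference of the differences, 30 values for the 10 genes, and none passed. Called over all genes were 0.716% for fasting, 0.00787% for cold and 0.00787% for cold with fasting. The fasting response of C1qa was 0.50 more negative in BKO on the log2 scale (difference -0.50, 95% interval -0.89 to -0.11, adjusted p = 0.256), and the same difference was -0.37 for C1qb (adjusted p = 0.383). The cold response of Cd163 was 0.55 less negative in BKO (95% interval 0.08 to 1.02, adjusted p = 1).

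Levels of pairs of these genes were also compared within libraries, as ratios of FPKM, which are per length; these pairs were picked after their values were seen and carry no test. H2-Eb1 over H2-Aa ranged from 0.663 to 0.824 (median 0.739) in the 12 libraries at room temperature and from 0.810 to 1.15 (median 0.986) in the 14 kept in cold. The ranges meet in a narrow overlap, at fed FF and cold FF libraries. Under cold with fasting the mean ratio was 1.05 in FF and 1.04 in BKO.

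Cd163 over Csf1r ranged from 0.353 to 0.676 in fed FF libraries, 0.571 to 0.748 in fasted, 0.239 to 0.404 in cold and 0.377 to 0.474 in cold with fasting. In BKO libraries it ranged from 0.295 to 0.304 fed, 0.466 to 0.541 fasted, 0.290 to 0.344 in cold and 0.305 to 0.462 in cold with fasting. In both genotypes the fasted libraries had the highest ratios in the mean. Each fed BKO ratio lay below each fed FF ratio. The lowest fed FF ratio, 0.353, was that of FF fed replicate 3. That replicate is the single fed FF library of the second series, to which all BKO libraries belong.

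**Figure D4:**
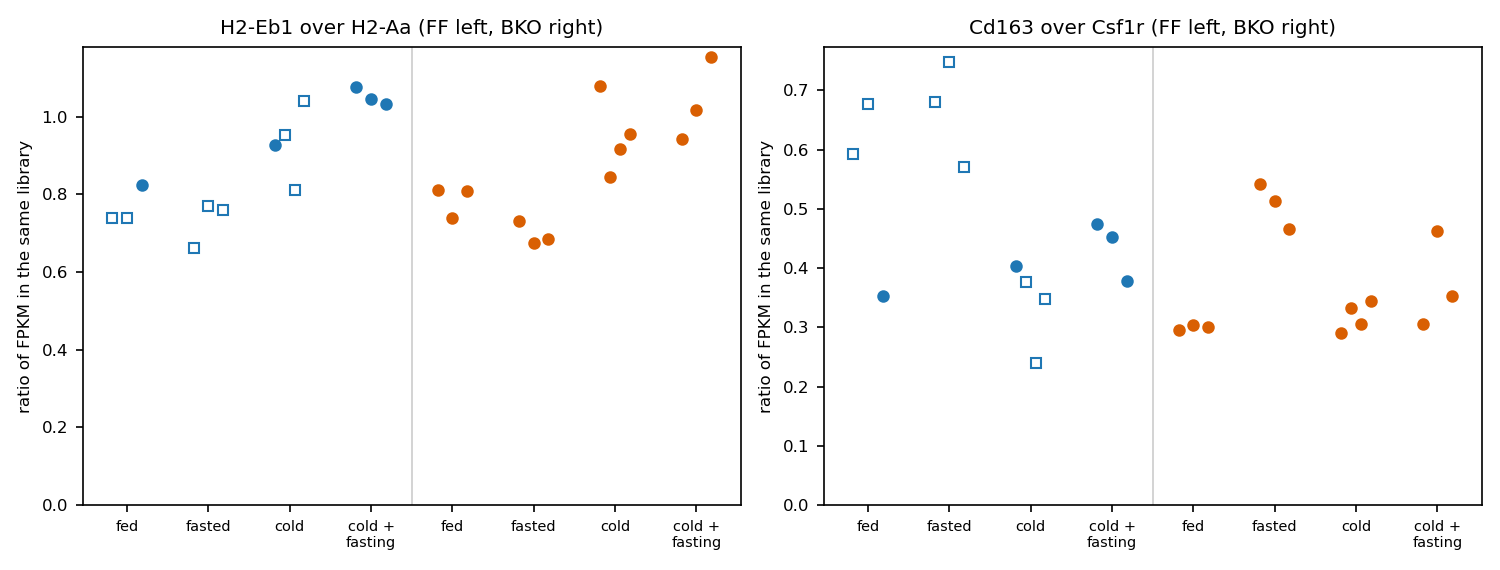
Ratio of FPKM in each of the 26 libraries, for H2-Eb1 over H2-Aa and for Cd163 over Csf1r, by genotype and condition. Open blue squares are FF libraries numbered 1 to 8, filled blue points FF libraries 15 to 32 and orange points BKO; the first ratio is at most 0.824 at room temperature and at least 0.810 in cold, and the second has its highest group means in fasted mice.

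Within groups, libraries high in one gene tended to be high in others of its kind. Over the deviations of the 26 libraries from their group means, Pearson's r was 0.67 to 0.81 for the 6 pairs of class II genes, 0.69 to 0.77 for the 3 pairs of C1q chains and 0.65 to 0.72 for the 3 pairs of receptors. It was 0.43 to 0.81 between C1q chains and class II genes, 0.30 to 0.54 between class II genes and receptors, and -0.03 to 0.37 between C1q chains and receptors. The points share library, depth and scaling, so the values describe these libraries. Among 7661 other genes of at least 5 FPKM in the mean, those most like the class II genes were Immp2l (r = 0.76), Atp6v0e (0.67), Fcer1g (0.65), Tmem159 (0.64) and Ube2z (0.62). Those most like the C1q chains and receptors were Lyz2 (0.78), Bgn (0.70), Tmem176b (0.69), Araf (0.68) and Atp6v0e (0.68). Fcer1g and Lyz2, a receptor chain and lysozyme of myeloid cells, are also macrophage markers.

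**Figure D5:**
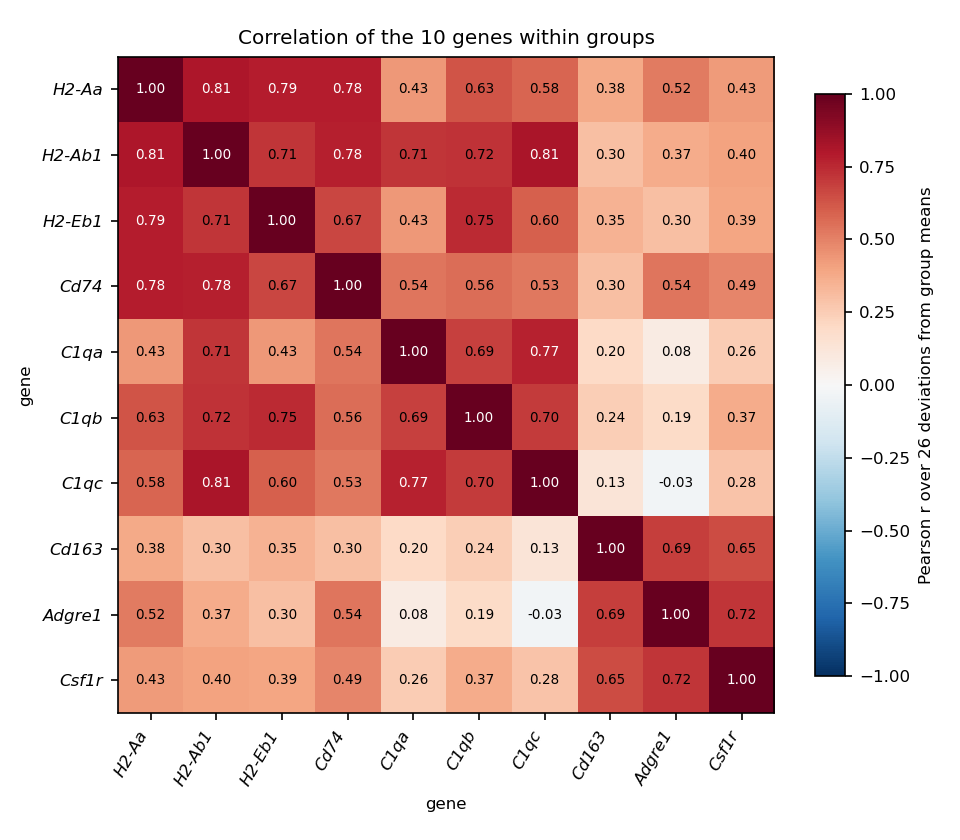
Pearson's r between each pair of the 10 genes over the deviations of the 26 libraries from their group means, on the log2(FPKM + 1) scale. The blocks of class II genes, C1q chains and receptors hold values of 0.65 or more, and the lowest values, down to -0.03, are between C1q chains and receptors.

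In the class II region on chromosome 17 (GRCm38, 34092340 to 34341412), most of the other genes tested were lower in cold as well. The region has 18 genes in the table, of which 10 were tested, 7 of them outside the 10 markers. Of these 7, 5 were lower in fasted FF, 5 in cold FF and 6 in cold with fasting FF, and 3, 6 and 7 in BKO, with medians between -0.35 and -0.70. In the same order, 19.4%, 10.3% and 8.93% of all genes were called lower in FF, and 14.6%, 6.5% and 8.93% in BKO. Psmb8, an immunoproteasome subunit, fell by 1.07 in cold FF (adjusted p = 1.05e-05) and by 1.21 in cold BKO (adjusted p = 3.33e-06). Tap1, a subunit of the class I peptide transporter, fell by 0.88 (adjusted p = 3.57e-06) and 0.73 (adjusted p = 6.05e-05). H2-DMa, which helps load peptide onto class II, fell by 0.42 in cold FF (adjusted p = 0.0153; 0.0932 in the first library series alone and above 0.05 without FF fed replicate 2) and by 0.62 in cold BKO (adjusted p = 0.00117). In cold, Brd2 was not called in either genotype, nor H2-DMb1 in FF. Brd2, a chromatin reader gene, rose with fasting by 0.73 in FF and 0.57 in BKO. Psmb9 overlaps Tap1 and Brd2 overlaps H2-DMa, and whether counting used strand is not given in the sources used here. None of the 7 passed the test between genotypes in any condition. These genes were looked at after values in the region had been seen, and without FF fed replicate 1 the count in fasted FF was 3.

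Of 17 genes of the class II pathway outside the 10 markers, 16 were in the table and 10 were tested. H2-DMa and H2-DMb1 belong both to this list and to the class II region, so their calls are counted in both. Ctsl, a lysosomal protease, rose with fasting by 0.82 in FF (adjusted p = 7.96e-06) and 0.68 in BKO (adjusted p = 0.000111). It was the only one of the list called higher in fasted mice, and 1 was lower in fasted FF and none in fasted BKO. In cold, 2 were lower and 1 higher in FF and 3 lower in BKO, and in cold with fasting the counts were again 2 and 1, and 3. The FF counts of lower genes did not hold: in cold the count was 0 without FF fed replicate 2 and 1 without FF fed replicate 1 or FF cold replicate 1 or 4. In cold with fasting it was 0 without FF replicate 1 of that group or with the library series as a covariate, and 1 without FF fed replicate 2 or FF replicate 3 of that group. Ciita, the coactivator of class II genes, was at 0.154 to 0.466 FPKM, under the filter, and was not tested. List medians were between -0.15 and 0.07. For fasted, cold and cold with fasting mice, 19.4%, 10.3% and 8.93% of all genes were called lower in FF. In BKO the shares were 14.6%, 6.5% and 8.93%. Called higher with fasting were 18.1% in FF and 12.9% in BKO.

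Genes of the interferon gamma response were called lower in all 6 condition comparisons. Of 14 listed 13 were tested, and 10 were lower and 1 higher in fasted FF, 8 and 0 in cold FF, 10 and 0 in cold with fasting FF. In BKO 6 were lower and 1 higher when fasted, 9 and 0 in cold and 8 and 0 in cold with fasting. Their medians were -0.54, -0.48 and -0.68 in FF and -0.31, -0.60 and -0.72 in BKO. Beside these counts, 19.4%, 10.3% and 8.93% of all genes were called lower in FF and 14.6%, 6.5% and 8.93% in BKO. Gbp3, a guanylate-binding protein, fell with fasting by 0.96 in FF (adjusted p = 4.06e-06) and by 1.21 in BKO (adjusted p = 2.63e-07). Psmb8, Psmb9 and Tap1 belong both to this list and to the class II region. Ifng itself was listed at 0 in 14 libraries and reached at most 0.167 FPKM. Without FF fed replicate 1 the count in fasted FF was 5, and without FF fed replicate 2 and BKO fed replicate 1 together 7 were lower in fasted FF, 8 in cold FF and 9 in cold BKO. Between fasted genotypes Gbp4 was higher in BKO by 0.62 (adjusted p = 0.0366), in the comparison where genotype and series cannot be told apart.

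Of 27 other macrophage markers 19 were tested, and most did not pass the test; 1 was lower and 1 higher in fasted FF, 5 and 0 in cold FF, 4 and 0 in cold with fasting FF, and in BKO 3 and 1, 4 and 0, and 4 and 0. Their medians lay between -0.11 and -0.29. The shares of all genes called lower were 19.4%, 10.3% and 8.93% in FF and 14.6%, 6.5% and 8.93% in BKO. Cd14, a co-receptor for bacterial lipopolysaccharide, fell in cold by 0.68 in FF (adjusted p = 0.000965) and 0.98 in BKO (adjusted p = 3.59e-05). Laptm5, a lysosomal protein of blood cells, fell by 0.44 (adjusted p = 0.00184) and 0.60 (adjusted p = 0.000126). With fasting Gas6, a bridge between dying cells and phagocytes, fell by 0.71 in FF and 0.80 in BKO, while Mertk, a receptor for it, rose by 0.79 and 0.63. The summed FPKM of the 27 genes was 103 to 118 in fed FF, 86.1 to 97.4 in cold FF, 99.4 to 152 in fed BKO and 80.8 to 110 in cold BKO libraries. Vsig4 and Cd5l were at 0 in 17 and 21 libraries. The cold FF count was 2 without FF fed replicate 2 and 3 without FF fed replicate 1 or FF cold replicate 1, and the FF count for cold with fasting was 1 with the library series as a covariate and 2 without FF fed replicate 1 or replicates 1 or 3 of that group. Without BKO fed replicate 3 the fasted BKO count was 8 and the cold BKO count 7, as without BKO cold replicate 4, and without BKO fed replicate 1 the counts for cold and for cold with fasting were 2, the latter also without BKO fed replicate 2.

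Markers of other cells that carry class II, or that could be in the tissue, are given beside these results as summed levels. The summed FPKM of 8 T cell markers, none of which passed the filter, was 2.38 to 4.63 in fed FF and 1.12 to 1.55 in cold FF libraries, 2.55 to 5.32 in fed BKO and 0.931 to 1.95 in cold BKO. Cd3e, which defines T cells, was at 0 in 4 libraries. The sum of 8 B cell markers was 5.64 to 11.8 FPKM in fed FF and 22.7 to 46.3 in cold FF libraries, and 8.05 to 17.3 in fed BKO and 14.3 to 21.1 in cold BKO. Most of it was Ighm, an immunoglobulin heavy chain (2.04 higher in cold FF, adjusted p = 5.83e-05), while the B cell genes Ms4a1 and Cd79a stayed at or under 0.213 and 0.515 FPKM. Ighm was not called in cold BKO. The sum of 10 dendritic cell markers was 29.2 to 60.8 FPKM in fed FF and 12.3 to 16.8 in cold FF libraries. In BKO libraries it was 17.9 to 38.6 FPKM fed and 13.6 to 15.3 in cold. Irf4 in this sum was 16.6 to 48.6 FPKM in fed FF and 3.02 to 6.39 in cold FF libraries. Irf4 is a transcription factor that brown adipocytes also express, and the dendritic cell genes Flt3, Xcr1 and Clec9a were at or under 0.194, 0.185 and 0.400 FPKM. Of 5 erythroid markers 5 were higher in cold FF and 4 in cold BKO, the latter count being 0 without BKO fed replicate 3 and 1 without BKO fed replicate 2. Among all genes, 13.3% were called higher in cold FF and 9.72% in cold BKO. The erythroid sum was 120 to 188 in fed and 342 to 601 FPKM in cold FF libraries, and 174 to 471 and 415 to 701 FPKM in BKO. The part of these markers in the differences of the 10 genes was not tested.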

How the data were processed

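Brown adipose tissue was profiled in 26 RNA sequencing libraries, from RNA isolated with a Roche HighPure kit and 1 ug per library, per the labels' protocols. The authors deposited 1 table of FPKM values per gene and library, unrounded, and the submitters' processing notes name STAR, Cufflinks, Cuffdiff and mm10 without versions. No read counts were used, so depth and counting error are unknown. All 26 columns were matched to samples by the number that header and title share, and 0 columns were left unused.

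FPKM values were tested as log2(FPKM + 1) with limma 3.58.1 (R 4.3.3; empirical Bayes with trend), as 8 group means over all 26 libraries, for the 12702 genes that reached 1 FPKM in 3 or more libraries. Contrasts within the fit were 5 of genotype, 6 of condition and 3 of the difference in response, 14 in all, with Benjamini-Hochberg adjustment per contrast. In 33 genes, zeros among values of 100 FPKM or more were set as missing, and 6 of these genes could not be tested in all groups. None of the 10 genes was affected. Groups follow the labels, replicates were numbered in accession order and pair nothing, and the fit was tested on simulated data.

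Gene positions are from GENCODE M21 (GRCm38) and promoters from RefSeq. Named beside the 10 genes are, per list, up to 3 genes with the smallest p in a contrast, the 5 genes most alike, and Klf15; some genes of these lists are not reported here. The 10 genes and all lists were chosen with earlier results of these data known. Alternatives were another pseudocount, other filters, quantile normalization, the library series as covariate or alone, array weights, fewer libraries, zeros kept, and each library left out.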

Additional observations from a re-analysis of the deposited data

Results flagged for a closer look

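No result met a condition for a closer look, but the groups of 3 libraries, the fed ones among them, were not tested for outliers. In the 20 sets of 4 libraries tested (the 10 genes in cold FF and cold BKO), no library's gap to its neighbour exceeded Dixon's 95% critical share of the range, and none of the 30 differences in response between genotypes passed limma's adjusted threshold.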

How the results depend on the processing

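No paired analysis was possible because the labels give no replicate numbers shared between groups. No value of the 10 genes changed sign together with a call under any alternative run, and of 3640 values refitted with 1 library left out 3588 kept their side of the threshold, 34 lost a call and 18 gained one. Only 29 of the 140 values per fit were called at the outset, so most values kept had no call to lose. With array weights 1 gene was called in BKO minus FF, fed, where none was, and 7 in cold with fasting FF, where 3 were. With the series as a covariate 0 were called in cold with fasting FF. The second series alone holds 1 fed FF library, with 1 in cold, so its 0 calls in cold FF and 0 in cold with fasting FF say nothing about stability; the lone library is assumed to vary like the other groups. That series holds all BKO libraries, and alone it ended the calls of H2-Ab1 and H2-Eb1 in fasted BKO (limma, adjusted p = 0.0504 and 0.0565). The call of H2-Eb1 in cold BKO ended there too (0.0648). Fits on only the libraries compared lost 5 calls and gained 1. Lost were H2-Aa in fasted FF (0.0515), Cd74 in cold with fasting FF (0.0599) and Adgre1 in fasted BKO (0.0753). In cold BKO, H2-Eb1 (0.146) and C1qb (0.0712) were lost. With the first series alone (an alternative chosen after seeing the data) 3 were called in cold FF against 6. Without both highest fed libraries (also chosen after seeing the data) 2 were called in fasted FF, 2 in cold FF and 3 in fasted BKO. With 1 library left out in turn, the number called ran from 1 to 5 in fasted FF, 2 to 7 in cold FF, 2 to 5 in cold with fasting FF, 3 to 7 in fasted BKO, 4 to 7 in cold BKO, 3 to 5 in cold with fasting BKO and 0 to 1 for genotype averaged over conditions, and was 0 in every other contrast. The cause of these changes was not tested. A pseudocount of 0.1 and zeros kept as values changed no call of the 10. A mean of at least 5 FPKM leaves out Cd163, Adgre1 and Csf1r. The second series alone cannot give fasted FF, the first gives only fasted and cold FF, and the average over conditions was not fitted on fewer libraries. With FPKM and no counts, the precision of low values such as those of Cd163 and Adgre1 cannot be set against their depth.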

Other observations

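Some other genes tied to macrophages and complement had larger differences than the 10. The list of other macrophage markers as a whole had medians between -0.11 and -0.29. Hmox1 and Hp reached 385 and 819 FPKM, and the cells that expressed them were not tested. Hmox1, which breaks down the heme that Cd163 uptake delivers, rose with fasting by 5.15 on the log2 scale in FF (limma, adjusted p = 1.28e-08) and by 4.26 in BKO (adjusted p = 2.46e-07), and Hp, haptoglobin, fell in cold by 1.94 and 2.16. Csf1, the ligand of the Csf1r receptor, fell with fasting in BKO by 0.78 (limma, adjusted p = 0.00111). It was the only one called of 8 genes tested for Csf1 receptor signalling in fasted BKO. In fasted FF, 2 of the 8 were higher and 1 was lower. The list medians were 0.15 in fasted FF and -0.11 in fasted BKO. Of all genes, 18.1% were called higher and 19.4% lower in fasted FF, and 12.9% and 14.6% in fasted BKO.

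Of 12 complement genes tested, 2 were lower in fasted FF, 6 lower and 2 higher in cold FF, 5 lower in fasted BKO, and 5 lower and 1 higher in cold BKO. Among all genes, 19.4% were called lower in fasted FF, 10.3% in cold FF, 14.6% in fasted BKO and 6.5% in cold BKO. Called higher in cold were 13.3% in FF and 9.72% in BKO. The fasted FF count was 0 without FF fed replicate 3 and 1 without FF fed replicate 1 or 2 or any fasted FF library. The cold FF count was 3 without FF fed replicate 1 or 2 or FF cold replicate 1 and 2 without FF cold replicate 4, the cold BKO count was 3 without BKO fed replicate 1 and 8 without BKO fed replicate 3, and that of fasted BKO was 3 without BKO fasted replicate 1. Cfd, the adipocyte protease adipsin, fell in cold by 2.07 in FF and 2.26 in BKO, and C4b fell by 1.10 in cold FF and fell by 1.59 in cold BKO. Of 5 fibroblast markers tested 3 were lower in cold in each genotype, and of 5 markers of lipid-associated macrophages at most 1 was higher and 2 were lower in any condition comparison.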
